A study of Mus musculus with 4 samples.

Results

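The neddylation module covers 33 genes of the 35275 in the deposited count table. They encode the ubiquitin-like modifier NEDD8, the enzymes that attach and remove it, the cullins that carry it, and the COP9 signalosome. The rule names the genes by role and uses none of their values, although they were chosen with earlier results of these data known, and each was found once in the table. RNA sequencing was done on thymocytes of C57BL/6 mice aged 6 to 8 weeks, untreated, sorted by flow cytometry into 2 stages. Group 2 was TCRβ intermediate and CD69 high, and group 3 was TCRβ high and CD69 high. The KO genotype is given as Uba3-/- in the sample labels and as Uba3ΔT in the series design, a T-cell deletion whose driver is not given in the sources used here. The WT genotype is given as wild type and as Uba3F/F, which carries the floxed Uba3 allele without the deletion. Each of the 4 groups, KO group 2, WT group 2, KO group 3 and WT group 3, held 1 library, and no source used here states how many mice went into a library. The labels' cell type field puts both KO libraries in group 3 and both WT libraries in group 2, against the sample titles and the design; the titles were followed.

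NEDD8 is a small protein that is linked to the cullin subunit of cullin-RING ubiquitin ligases and switches them on. The E1 enzyme, a dimer of UBA3 and NAE1, activates NEDD8, the E2 enzymes UBE2M and UBE2F carry it, and the RING proteins RBX1 and RNF7 together with the DCN proteins pass it to a cullin. The COP9 signalosome takes NEDD8 off again, and CAND1 then lets a cullin exchange its substrate receptor. In T cells, cullin ligases are known for degrading cell cycle inhibitors and the inhibitors of NF-kB, and the COP9 subunits Cops5 and Cops8 have been studied in mouse T-cell development and homeostasis.

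The libraries held 8964120 counts in KO group 2, 10299863 in WT group 2, 9689339 in KO group 3 and 8043077 in WT group 3. Genes with a count above 0 numbered 23925 in KO group 2, 20440 in WT group 2, 20521 in KO group 3 and 23325 in WT group 3, so the KO library had more in group 2 and fewer in group 3. T-cell markers were high in each library, with a summed level of 24707 and 19355 CPM (counts per 1000000 counts of a library, scaled with TMM factors) in KO groups 2 and 3 and 23314 and 22158 CPM in WT groups 2 and 3. Of 7 genes of mature thymocytes, 6 were higher in group 3 by the edgeR test used below, which fits the order of the stages in the titles. The summed level of these genes was 3155 and 3199 CPM in group 3 of KO and WT, against 1735 and 1522 CPM in group 2. Markers of proliferation had a summed level of 1102 CPM in KO group 2 against 1658 CPM in WT group 2, and of 976 CPM in KO group 3 against 1420 CPM in WT group 3, with 7 of 8 called lower in the libraries labelled KO by the same test. Markers of immature double-positive cells summed to 3614 CPM in KO group 2 against 4319 CPM in WT group 2, and to 2561 CPM in KO group 3 against 3435 CPM in WT group 3, with 4 of 7 called lower. By the same test, 1.81% of all genes were called lower in the libraries labelled KO and 2.17% higher in group 3. In sorted bulk samples like these, fewer cells of a type and less RNA per cell cannot be told apart.

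Uba3, which encodes the catalytic subunit of the E1 enzyme, had more reads in the libraries labelled KO than in the WT libraries. It held 647 counts in KO group 2 against 453 in WT group 2, and 856 in KO group 3 against 356 in WT group 3. The scaled level was 73.3 CPM in KO group 2 against 43.2 CPM in WT group 2, and 89.9 CPM in KO group 3 against 43.7 CPM in WT group 3. Both libraries labelled KO stood above both WT libraries, and the WT libraries differed little from each other. KO over WT was 1.70-fold in group 2 (95% counting interval 1.5 to 1.92) and 2.06-fold in group 3 (1.82 to 2.34). These intervals, here and below, are exact binomial (Clopper-Pearson) and cover counting error only. The counts are summed over the whole gene, so reads from deleted exons and from kept exons cannot be told apart, and the label of the KO libraries could not be checked exon by exon. For that reason they are called the libraries labelled KO, and each genotype direction below rests on that label.

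The other E1 subunit, Nae1, the regulatory partner of Uba3, did not show this difference in group 2. Its level was 81.1 CPM in KO group 2 against 80.2 CPM in WT group 2, and 102 CPM in KO group 3 against 83.5 CPM in WT group 3. KO over WT of Nae1 was 1.01-fold in group 2 (0.91 to 1.12) and 1.22-fold in group 3 (1.11 to 1.35). RPKM is the authors' deposited level per kilobase of gene and 1000000 reads. The RPKM of Uba3 over that of Nae1 was 0.531 in KO group 2 (0.477 to 0.592) against 0.316 in WT group 2 (0.282 to 0.355). In group 3 the ratio was 0.517 in the library labelled KO (0.471 to 0.568) against 0.307 in WT (0.270 to 0.350). The 2 ratios of each genotype lay close together, and those of the genotypes did not overlap within counting error. The size of such a ratio depends on the gene lengths used, which cancel between libraries. The mean level was 25.3 RPKM for Uba3 and 60.1 RPKM for Nae1, whereas per kilobase of the longest transcript it was 24.3 and 21.8 CPM, and per kilobase of all exons 9.77 and 10.6 CPM.

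The RefSeq promoter windows of Uba3 and Cops8, the members that passed the genotype test given below, are shown so that the start regions of both can be compared. Each runs from 250 bases before to 50 bases after the start annotated in RefSeq, 5′ to 3′ on the gene's strand, on GRCm38.p6. The Uba3 window is chr6:97205598-97205897 on the minus strand and the Cops8 window chr1:90603175-90603474 on the plus strand. In the GENCODE M21 annotation Uba3 starts at 97205647, inside its window, and Cops8 at 90602981, upstream of its window. By that annotation the windows are not placed alike. Capitals mark matches to GGGCGG (GC box) or CCGGAAG (ETS core) on either strand.
Uba3: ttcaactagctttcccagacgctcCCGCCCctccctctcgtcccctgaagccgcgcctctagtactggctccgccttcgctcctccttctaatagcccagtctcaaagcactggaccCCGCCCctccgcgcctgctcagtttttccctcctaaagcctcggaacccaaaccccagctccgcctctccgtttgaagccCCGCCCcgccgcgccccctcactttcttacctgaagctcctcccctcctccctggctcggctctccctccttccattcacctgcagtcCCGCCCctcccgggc
Cops8: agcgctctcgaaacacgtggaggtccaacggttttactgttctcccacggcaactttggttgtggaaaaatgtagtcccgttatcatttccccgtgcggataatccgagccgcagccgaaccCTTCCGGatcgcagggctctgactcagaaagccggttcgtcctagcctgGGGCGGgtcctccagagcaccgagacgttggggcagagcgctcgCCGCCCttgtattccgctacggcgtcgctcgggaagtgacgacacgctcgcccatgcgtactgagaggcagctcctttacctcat
The Uba3 window held 4 GC boxes and had a GC content of 65.0%. That of Cops8 held 2 GC boxes and 1 ETS core, at 59.7% GC. The search also covered the TATA box, spelled TATAAA. Neither window held it, nor the CCAAT box, whose letters are its name. The cyclic AMP response element (CRE), spelled TGACGTCA, the core of the antioxidant response element, spelled TGACNNNGC, the E2F motif, spelled TTTGGCGC, and the NRF1 motif were also found in neither.

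Across the whole genome, 32851 RefSeq windows of this length were searched in the same way, and 44 of them belonged to 30 of the 33 members. Chromosome 18, where Cul2 lies, was left out of the members' windows but kept among all windows. A GC box occurred in 63.6% of the members' windows and in 35.7% of all windows. The ETS core occurred in 31.8% of the members' windows and in 8.86% of all. The CCAAT box was found in 25% against 37.4%, the TATA box in 2.27% against 13.6%, CRE in 4.55% against 1.79% and the antioxidant response element core in 9.09% against 12.4%. No window of a member held the E2F or the NRF1 motif, which 0.514% and 0.971% of all windows held. The members' windows had a median GC content of 61.3%, against 52.7% over all windows, and windows of 1 gene can overlap. The 32851 windows were neither limited to expressed genes nor matched to the members for GC content, so the shares are not like for like. Motif matches describe the letters of these windows and no binding was measured.

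Cops8 encodes a small subunit of the COP9 signalosome and was the second member that rose in the libraries labelled KO. It held 1369 counts in KO group 2 against 991 in WT group 2, and 1403 in KO group 3 against 999 in WT group 3. Its level was 155 CPM in KO group 2 against 94.4 CPM in WT group 2, and 147 CPM in KO group 3 against 123 CPM in WT group 3. As for Uba3, both libraries labelled KO were above both WT libraries, but here the WT libraries stood apart. KO over WT was 1.64-fold in group 2 (1.51 to 1.78) and 1.2-fold in group 3 (1.11 to 1.31). Against its fellow subunit Cops4, the RPKM ratio of Cops8 was 1.17 in KO group 2 (1.08 to 1.25) against 0.723 in WT group 2 (0.668 to 0.781), and 1.11 in KO group 3 (1.03 to 1.19) against 0.984 in WT group 3 (0.906 to 1.07). Against Cops5, the catalytic subunit, it was 1.34 in KO group 2 against 0.849 in WT group 2, and 1.44 in KO group 3 against 1.10 in WT group 3. Per kilobase of the longest transcript the mean level of Cops8 was 49.9 CPM, below 73.5 CPM for Cops4 and 57.2 CPM for Cops5, so which subunit is higher depends on the length used.

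**Figure D1:**
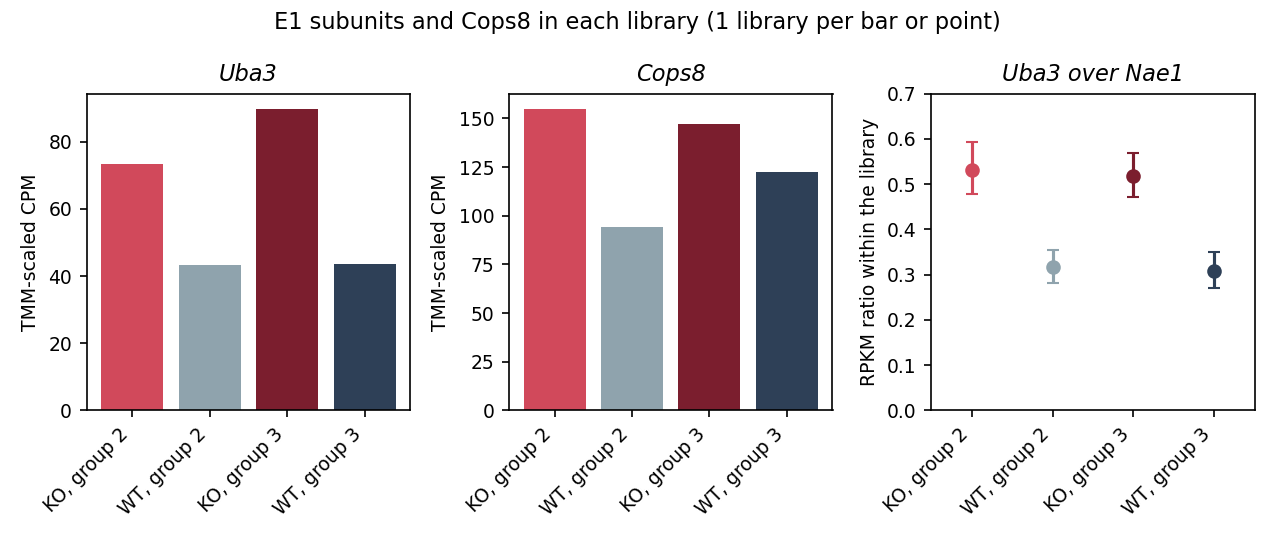
Bars give the TMM-scaled CPM of Uba3 and Cops8 in each of the 4 libraries, and points give the RPKM of Uba3 over that of Nae1 within each library with its 95% counting interval. Uba3 stands at 73.3 and 89.9 CPM in the libraries labelled KO, above 43.2 and 43.7 CPM in WT, and its ratio to Nae1 is 0.531 and 0.517 against 0.316 and 0.307.

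For the genotype effect shared by both stages, edgeR's quasi-likelihood F test was run over 12490 genes with 2 CPM or more in at least 1 library, with Benjamini-Hochberg adjustment and a threshold of 0.05. All 33 members passed this filter. Over all genes tested, 2.94% were called higher and 1.81% lower in the libraries labelled KO. Among the members 2 of 33 (6.06%) were called higher and 0 lower. Uba3 had a fitted log2 fold of 0.90 (SE 0.17, adjusted p = 2.17e-05 by edgeR) and Cops8 of 0.49 (SE 0.15, adjusted p = 0.0306 by edgeR), each with KO above WT in both stages. Cul3, a cullin, had an unadjusted p under 0.05, as 13.3% of all genes and 9.09% of the members did, but missed the adjusted threshold with a log2 fold of 0.32 (SE 0.15, adjusted p = 0.30 by edgeR). DESeq2 called only Uba3 among the members, and 1.43% of all genes. limma-voom called Uba3 and Cops8, and 4.0% of all genes.

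With 1 library per group, the stages stand in for repeats of the genotype contrast, and the spread of every gene was taken from the trend over all genes. With genotype as the only term, neither gene kept its call, and the adjusted p by edgeR was 0.0796 for Uba3 and 0.365 for Cops8. When each library was also left out in turn in that model, where a lone library is assumed to vary like the others, the log2 fold of Uba3 was 0.76 to 1.05. The adjusted p of Uba3 by edgeR was 0.0767 without KO group 2, 0.265 without WT group 2, 0.362 without KO group 3 and 0.132 without WT group 3. Cops8 then had log2 folds of 0.45, 0.30, 0.52 and 0.68, with adjusted p from 0.191 to 0.9999 by edgeR.

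Markers of other cells moved with genotype too. Beside the lower proliferation and double-positive markers given above, 2 of 8 tested myeloid markers (C1qb and Ngp) were called higher in the libraries labelled KO. So was 1 of 6 tested B-cell markers (Igkc), and 2.94% of all genes were called higher. C1qb had 9.17 and 15.8 CPM in KO groups 2 and 3 against 3.72 and 8.09 CPM in WT groups 2 and 3. Ngp held 2 counts in each group 2 library, and 204 in KO group 3 against 6 in WT group 3. Igkc had 490 CPM in KO group 2 against 220 CPM in WT group 2. In group 3 Igkc was alike, at 62.5 CPM in KO and 61.8 CPM in WT. All 10 myeloid markers summed to 67.3 CPM in KO group 2 against 46.3 CPM in WT group 2, and to 117 CPM in KO group 3 against 50.4 CPM in WT group 3. Camp was at 0 in KO group 2 and WT group 2, Elane in WT group 2, KO group 3 and WT group 3, and S100a8 and S100a9 in WT group 3. The 7 B-cell markers summed to 1594 CPM in KO group 2 against 1332 CPM in WT group 2, and to 845 CPM in KO group 3 against 1048 CPM in WT group 3. Tested were 3 of 6 markers of dendritic cells, 2 of 7 of thymic epithelium, 5 of 6 of erythroid cells and 3 of 6 of stroma and endothelium. None of these was called for genotype. The 6 erythroid markers summed to 538 CPM in KO group 2 against 361 CPM in WT group 2. In group 3 they summed to 395 CPM in KO against 402 CPM in WT. The part of all these cell markers in the results for Uba3 and Cops8 was not tested.

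Per length, the members spanned from Nedd8, the modifier itself, at a mean of 248 RPKM to Cul9 at 1.18 RPKM. For 61.5% of all genes the length behind the RPKM was the mean length of the annotated transcripts within 1 bp. With the length of the longest transcript in its place, Nedd8 and Cul9 kept the first and last rank, while Cand1 moved from rank 20 to 26 and Uba3 from 22 to 17. Nedd8 varied little, with 239 RPKM in KO group 2, 260 in WT group 2, 243 in KO group 3 and 251 in WT group 3.

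The E1 subunits averaged 60.1 RPKM for Nae1, rank 15 of the 33 members, and 25.3 RPKM for Uba3, rank 22. Of the E2 enzymes, Ube2m, which serves Cul1 to Cul4 through RBX1, had 194 RPKM on average. Ube2f, which serves Cul5 through RNF7, had 50.2 RPKM. The ratio of Ube2f to Ube2m was 0.261 in KO group 2 against 0.352 in WT group 2, and 0.239 in KO group 3 against 0.209 in WT group 3. The RING genes were in the other order, with Rnf7 at 182 RPKM and Rbx1 at 99.5 RPKM.

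Among the 5 DCN genes, which encode scaffold-type helpers of NEDD8 transfer, Dcun1d5 averaged 168 RPKM and Dcun1d1 85.5 RPKM. The other DCN genes lay between 5.70 RPKM (Dcun1d4) and 9.42 RPKM (Dcun1d2). Senp8, the protease that matures NEDD8 and removes it from proteins other than cullins, averaged 2.01 RPKM. Of the exchange factors, Cand1 averaged 26.1 RPKM and Cand2 3.04 RPKM, and the ratio of Cand2 to Cand1 was 0.130 in KO group 2 against 0.0590 in WT group 2, and 0.155 in KO group 3 against 0.132 in WT group 3. WT group 2 was the low library for that ratio.

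Cul1, the scaffold of the SKP1 and F-box ligases, and Cul3, the scaffold of the BTB ligases that include KEAP1, led the cullins at 105 and 97.4 RPKM. Cul4a, Cul2 and Cul5 were close together at 25.99, 25.2 and 24.8 RPKM. Cul4b averaged 8.94 RPKM, Cul7 3.78 RPKM and Cul9 1.18 RPKM. The COP9 genes ranged from 185 RPKM for Cops6, the inactive metalloprotease-fold partner of Cops5, to 16.7 RPKM for Cops7b. Cops7a, the alternative of Cops7b in the complex, averaged 53.4 RPKM, and Cops9, a small acidic subunit, 34.8 RPKM.

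**Figure D2:**
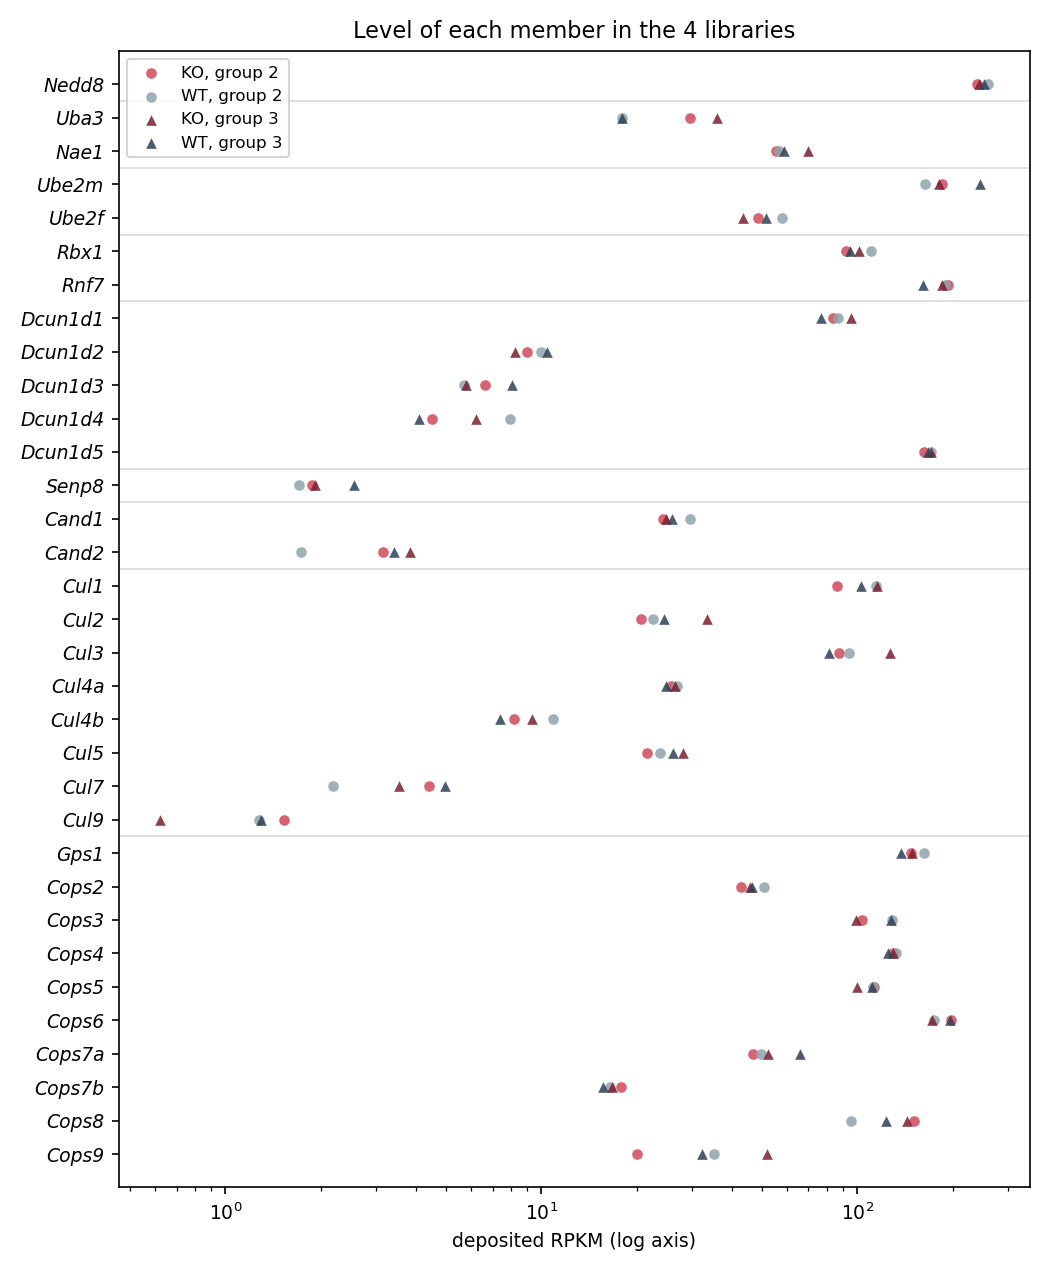
Each row is a member in role order, and the points give its deposited RPKM in the 4 libraries on a log axis. The members run from Nedd8 at 248 RPKM to Cul9 at 1.18 RPKM on average, and the points of low members such as Cul7, Cul9, Cand2 and Dcun1d4 spread more widely between libraries than those of Nedd8 or Dcun1d5.

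Set side by side in group 2, KO over WT was past 1.5-fold with an interval that excluded 1 for 4 members upward and 2 downward. Over all genes tested, 11.8% were past this fold upward and 8.05% downward, so the members' shares of 12.1% and 6.06% were near the background. The members upward were Uba3, Cand2, Cul7 and Cops8, and those downward were Dcun1d4 and Cops9. In group 3, 4 members were upward (Uba3, Dcun1d4, Cul3 and Cops9) and 1 downward (Cul9). The background there was 6.39% upward and 10.6% downward, against 12.1% and 3.03% of the members. Only Uba3 was past 1.5-fold in the same direction in both stages, and the share of all genes that were was not counted. The median log2 fold of the members was -0.03 in group 2, where that of all genes was 0.00, and 0.14 in group 3, where that of all genes was -0.01. At 2-fold, Cul7 was the only member upward in group 2 and none was downward, where 6.45% of all genes were upward and 2.44% downward. Uba3 was the only member upward at 2-fold in group 3 and none was downward, where 2.17% of all genes were upward and 5.6% downward.

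Cul3 was past 1.5-fold in group 3. Its level was 141 CPM in KO group 2 against 146 CPM in WT group 2, and 204 CPM in KO group 3 against 127 CPM in WT group 3. KO over WT was 0.97-fold in group 2 (0.90 to 1.04) and 1.61-fold in group 3 (1.49 to 1.74). KO group 3 was the high library and the other libraries lay close together. Cul2, an elongin-linked cullin, also had KO group 3 as its high library, with 45.9 CPM in KO group 2 against 48.4 CPM in WT group 2, and 74.7 CPM in KO group 3 against 52.6 CPM in WT group 3. Cul1 was 0.78-fold in group 2 (0.71 to 0.86) and 1.16-fold in group 3 (1.06 to 1.27). The summed level of the 8 cullins was 416 CPM in KO group 2 against 450 CPM in WT group 2, and 553 CPM in KO group 3 against 427 CPM in WT group 3. KO group 3 was again the high library.

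Cul7, the scaffold of the FBXW8 ligase, had 14.5 CPM in KO group 2 against 6.95 CPM in WT group 2, and 11.7 CPM in KO group 3 against 15.8 CPM in WT group 3. KO over WT was 2.08-fold in group 2 (1.55 to 2.82) and 0.74-fold in group 3 (0.57 to 0.96), and WT group 2 was the low library. Its relative Cul9, known to bind p53, had only 50 counts in KO group 2 against 48 in WT group 2, and 22 in KO group 3 against 38 in WT group 3. KO over WT of Cul9 was 1.24-fold in group 2 (0.82 to 1.88) and 0.50-fold in group 3 (0.28 to 0.86). KO group 3 was the low library for Cul9, on few reads throughout.

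Cand2 had 15.4 CPM in KO group 2 against 8.19 CPM in WT group 2, and 18.8 CPM in KO group 3 against 16.2 CPM in WT group 3. KO over WT was 1.88-fold in group 2 (1.42 to 2.49) and 1.16-fold in group 3 (0.92 to 1.47), and WT group 2 stood below the other libraries. An exon of Cand2 overlaps Rpl32, an abundant gene on the opposite strand, over 53 bp, and reads of that stretch cannot be told apart because the strand setting of the counting is not given in the sources used here. Cand1, the exchange factor that thymocytes express more, stayed between 60.5 and 70.7 CPM in all libraries.

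Dcun1d4 had 55 counts in KO group 2 against 112 in WT group 2, and 82 in KO group 3 against 45 in WT group 3. KO over WT was 0.58-fold in group 2 (0.41 to 0.81) and 1.56-fold in group 3 (1.07 to 2.30), so the folds lay on opposite sides of 1, a difference that was not tested. Cops9 had 98 counts in KO group 2 against 197 in WT group 2, and 273 in KO group 3 against 141 in WT group 3. KO over WT of Cops9 was 0.59-fold in group 2 (0.46 to 0.76) and 1.66-fold in group 3 (1.35 to 2.05). The WT libraries of Cops9 were alike at 18.8 and 17.3 CPM, and the libraries labelled KO lay on either side at 11.1 CPM in group 2 and 28.7 CPM in group 3.

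The other 8 subunits of the COP9 signalosome stayed between 0.80-fold (Cops3) and 1.16-fold (Cops6) in both genotype pairs. The summed level of all 10 was 1166 CPM in KO group 2 against 1112 CPM in WT group 2, and 1136 CPM in KO group 3 against 1130 CPM in WT group 3. Cops3 was below WT in both stages with both intervals excluding 1, with 103 CPM in KO group 2 against 123 CPM in WT group 2, and 98.7 CPM in KO group 3 against 123 CPM in WT group 3. Its fitted log2 fold of -0.29 missed the threshold (SE 0.15, adjusted p = 0.405 by edgeR).

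**Figure D3:**
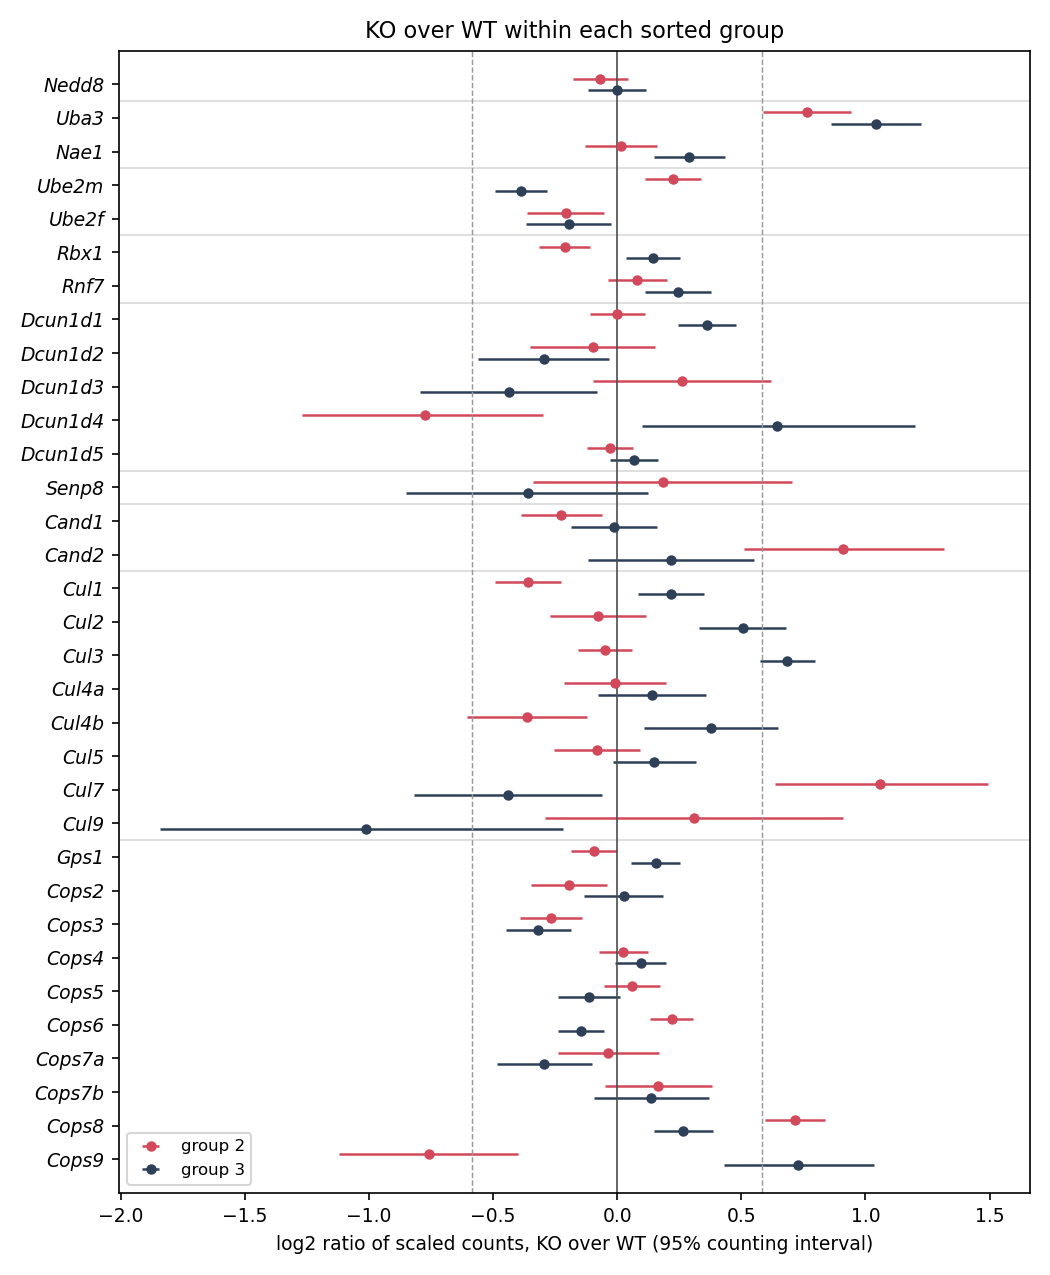
Points give the log2 ratio of TMM-scaled counts, KO over WT, for each member within group 2 and group 3, and lines give 95% counting intervals. Dashed lines mark 1.5-fold. Uba3 lies to the right of 0 in both stages at 1.70-fold and 2.06-fold, whereas Dcun1d4, Cul7 and Cops9 lie on opposite sides in the 2 stages.

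In 6 members both libraries labelled KO were above both WT libraries, which 18.8% of all genes showed, and in 5 both were below, which 19.7% of all genes showed. The 6 were Uba3, Rnf7, Dcun1d1, Cops4, Cops7b and Cops8, and the 5 were Nedd8, Ube2f, Dcun1d2, Cand1 and Cops3. The members' shares of 18.2% and 15.2% lay near that background. Dcun1d1 had 140 CPM in both group 2 libraries, and 160 CPM in KO group 3 against 125 CPM in WT group 3. Rnf7, the RING partner of Cul5, had 123 CPM in KO group 2 against 117 CPM in WT group 2, and 119 CPM in KO group 3 against 100.4 CPM in WT group 3.

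Another arrangement paired KO group 2 with WT group 3. In 10 members (30.3%) these libraries were both below the other pair, against 14.1% of all genes, and in 5 members (15.2%) both were above, against 15% of all genes. The 10 were Rbx1, Dcun1d4, Dcun1d5, Cul1, Cul3, Cul4a, Cul4b, Gps1, Cops2 and Cops9. The 5 were Ube2m, Dcun1d3, Cul7, Cul9 and Cops6. For 9 members (27.3%) the genotype folds of the 2 stages lay on opposite sides of 1 with both intervals excluding 1, against 9.5% of all genes. Counting intervals narrow as counts rise, and the members and all genes were not matched for count level. These shares are therefore not like for like. The genotype fold itself differed by 1.5-fold or more between the stages, with an interval excluding no difference, for 4 members higher in group 3 (Dcun1d4, Cul3, Cul4b and Cops9) and 5 lower (Ube2m, Dcun1d3, Cand2, Cul7 and Cul9), against 7.09% and 9.73% of all genes. Ube2m had 148 CPM in KO group 2 against 127 CPM in WT group 2, and 146 CPM in KO group 3 against 191 CPM in WT group 3, so that WT group 3 was its high library. Its KO over WT was 1.17-fold in group 2 (1.08 to 1.26) and 0.76-fold in group 3 (0.71 to 0.82). Cul4b, a scaffold of the DDB1 ligases encoded on the X chromosome, was 0.78-fold in group 2 (0.66 to 0.92) and 1.3-fold in group 3 (1.08 to 1.57). Its own relative Cul4a, the other DDB1 scaffold, stayed between 38.1 and 42.0 CPM. The libraries KO group 2 and WT group 3 had 23925 and 23325 genes above 0, and KO group 3 and WT group 2 had 20521 and 20440. The difference of genotype folds between stages has no residual degree of freedom in this design and was not tested, and the part of the number of genes detected in it was not tested.

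The step from group 2 to group 3 is a step of maturation after positive selection, and no member passed the edgeR test for it, which does not show that none differed. Over all genes tested, 2.17% were called higher and 1.14% lower in group 3, against 0 of 33 members in either direction. At an unadjusted p under 0.05 there were 3 (9.09%), Cand2, Cul2 and Cops9, against 10.8% of all genes. DESeq2 and limma-voom each called 0 of the members, and 1.11% and 2.89% of all genes. The fitted log2 fold, group 3 over group 2, was 0.59 for Cand2 (SE 0.28, adjusted p = 0.378 by edgeR), 0.42 for Cul2 (SE 0.18, adjusted p = 0.263 by edgeR) and 0.61 for Cops9 (SE 0.25, adjusted p = 0.241 by edgeR).

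Within the libraries labelled KO, group 3 over group 2 was past 1.5-fold upward for Cul2 and Cops9 and downward for Cul9. All genes were past that fold upward in 5.96% and downward in 10.7%. Cops9 was 2.58-fold (2.04 to 3.29), Cul2 1.63-fold (1.44 to 1.84) and Cul9 0.41-fold (0.24 to 0.69). In WT the members past it were Cand2 at 1.98-fold (1.49 to 2.62) and Cul7 at 2.27-fold (1.69 to 3.07) upward, and Dcun1d4 at 0.52-fold (0.36 to 0.74) downward, with 10.1% and 6.04% of all genes upward and downward. At 2-fold, Cops9 was upward and Cul9 downward in KO, where 1.85% and 5.99% of all genes were, and Cul7 was upward in WT, where 5.22% were upward and 1.86% downward. No member was past 1.5-fold in both genotypes, and the share of all genes that were was not counted. Just outside it in WT were Ube2m and Senp8, each at 1.5-fold before the pseudocount of 0.5 CPM was added. For Uba3 the step was 1.23-fold in KO (1.11 to 1.36) and 1.01-fold in WT (0.88 to 1.16).

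In 6 members both group 3 libraries were above both group 2 libraries, namely Nae1, Senp8, Cand2, Cul2, Cul5 and Cops7a, against 16.1% of all genes. Cops5 alone had both below, at 117 and 127 CPM in group 3 of KO and WT against 133 and 127 CPM in group 2, where the WT values differed by less than their rounding, and 16.2% of all genes had both below. The members' median log2 fold for this step was 0.04 in KO and -0.03 in WT, against -0.01 and 0.00 for all genes.

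**Figure D4:**
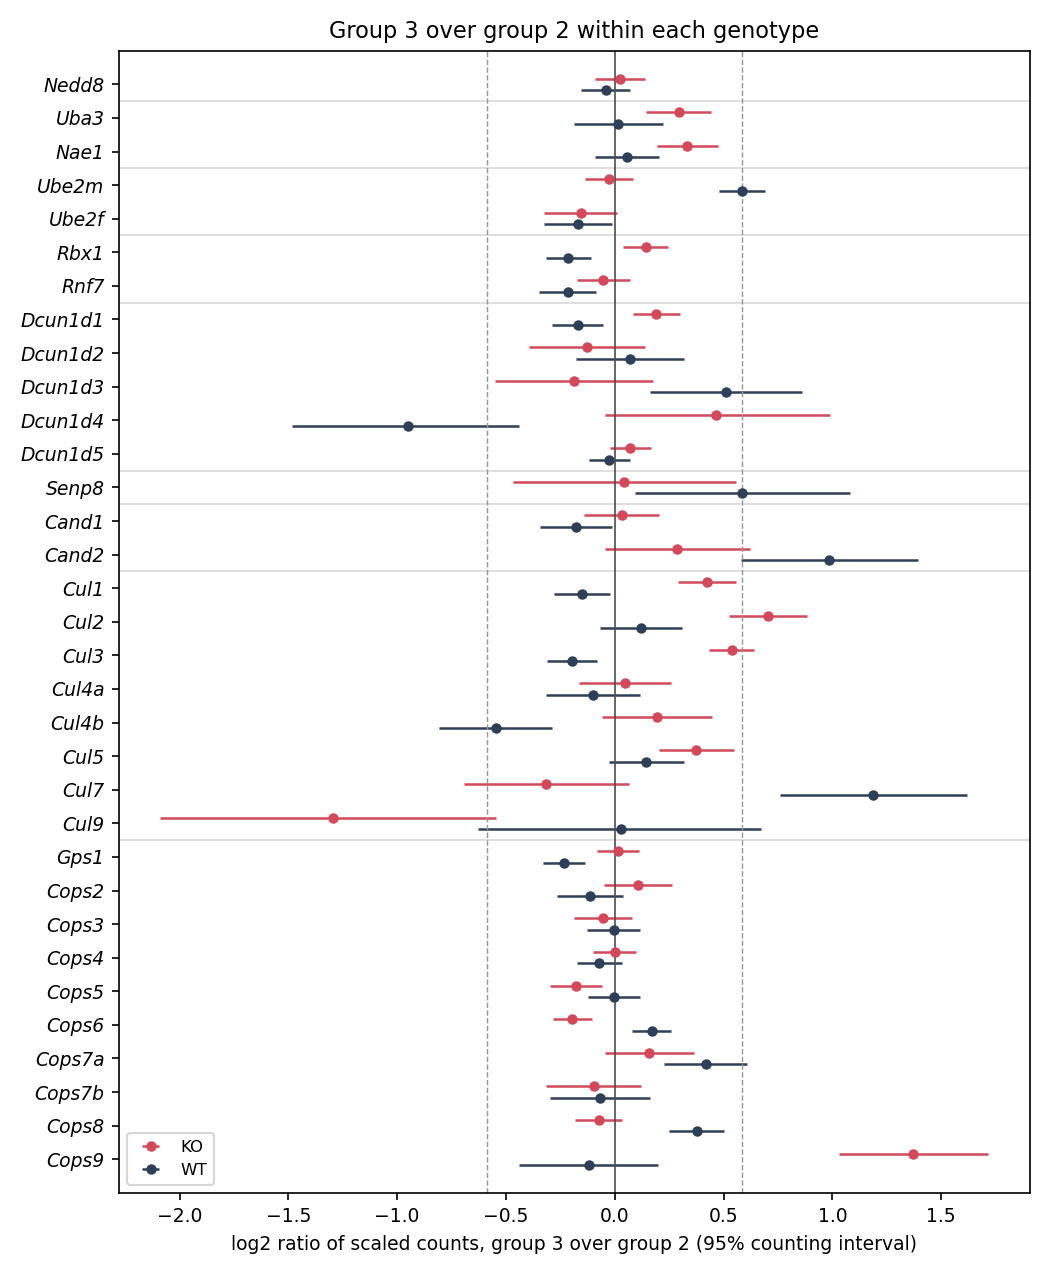
Points give the log2 ratio of TMM-scaled counts, group 3 over group 2, for each member within KO and WT, and lines give 95% counting intervals. Dashed lines mark 1.5-fold. Cops9 stands out to the right in KO at 2.58-fold and lies near 0 in WT at 0.92-fold, and Cul7 does so in WT at 2.27-fold against 0.80-fold in KO.

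Of 14 adaptors and partner enzymes of cullin ligases, 1 was called higher in the libraries labelled KO and 0 lower. Of all genes tested, 2.94% were called higher and 1.81% lower. The gene called was Cdc34, an E2 enzyme that extends ubiquitin chains with the Cul1 ligases. Cdc34 had 85.3 CPM in KO group 2 against 55.9 CPM in WT group 2, and 101 CPM in KO group 3 against 70.3 CPM in WT group 3. Its log2 fold was 0.57 (SE 0.16, adjusted p = 0.0167 by edgeR), with KO above WT in both stages. None of 5 other genes that handle NEDD8 (Uchl3, Usp21, Nub1, Rnf111 and Mdm2) and neither of the cullin-like APC/C core genes Anapc2 and Anapc11 passed for genotype or stage. Of 8 genes for E1 enzymes of other ubiquitin-like proteins, 0 passed for genotype. For stage 1 passed, where 2.17% of all genes were called higher and 1.14% lower in group 3. That gene, Uba7, the E1 of the interferon-induced modifier ISG15, was higher in group 3, at 144 and 115 CPM in group 3 of KO and WT against 91.3 and 67.3 CPM in group 2 (log2 fold 0.71, SE 0.16, adjusted p = 0.000491 by edgeR).

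On the mm10 genome, Uba3 (ENSMUSG00000030061) is a gene of the minus strand at chr6:97183670-97205647 and its exons overlap no other annotated exon. Within 1000000 bp of it 4 other genes were tested, with a median log2 genotype fold of -0.04, and 1 of them, Frmd4b, was called higher at 0.84. Of all genes tested, 2.94% were called higher and 1.81% lower for genotype. Cops8 (ENSMUSG00000034432) lies at chr1:90602981-90613341 on the plus strand. Of 11 genes tested within 1000000 bp, 1 was called higher (Rbm44, at 3.51) and 1 lower (Ramp1, at -0.58), and their median was 0.10. Ube2f, another member, is among these neighbours and had a log2 fold of -0.20 that was not called. The 5 members, Cul3, Cops7b, Cops8, Ube2f and Cops9, lie within 12.4 Mb of chromosome 1, and Cul9 and Cul7 lie within 0.164 Mb of each other on chromosome 17. Annotated exons of 10 members, Nedd8, Dcun1d1, Dcun1d3, Cand2, Cul1, Cul5, Cops2, Cops3, Cops5 and Cops6, overlap exons of a gene on the opposite strand, for Cops6 the replication gene Mcm7 over 64 bp. Reads of such stretches cannot be told apart without the strand setting.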

How the data were processed

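Sorted mouse thymocytes gave 4 libraries, 1 per genotype and stage, grouped by sample title. The authors deposited counts per Ensembl gene and, in separate files, RPKM. The submitters' processing notes name TopHat2 2.0.12 and the mm10 build. Neither the program that counted the reads nor its strand setting is given in the sources used here. The deposited RPKM, divided into the counts, gave a whole gene length within 0.01 bp for each gene, the same across libraries. That length was the mean annotated transcript length within 1 bp for 61.5% of genes. Of 35275 IDs, 34490 matched a symbol in GENCODE M21.

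Counts were scaled with TMM in edgeR 4.0.16 (R 4.3.3). Genotype and stage were tested in 1 additive model (quasi-likelihood F test, 1 residual degree of freedom, common dispersion 0.0288). With 1 library per group, the p-values rest on how far genes depart from additive effects of genotype and stage. That spread was taken from the trend over all genes and may be technical. Spread between repeat libraries of a group was not observed. Pair folds used CPM plus 0.5, with exact conditional binomial intervals without the pseudocount, and carry no test. RPKM served for levels in each library and for ratios of genes within libraries, and the folds between libraries did not use it. The test was checked on simulated data.

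All members are accounted for; in full are Uba3, those called by edgeR and those past 1.5-fold in any pair. The members, lists and motifs were chosen with earlier results of these data known. Alternatives were other scaling, filters, DESeq2 1.42.0, limma-voom (limma 3.58.1), robust shrinkage, models of the tested factor alone, leaving out each library, a pseudocount of 2 CPM, a minimum of 10 CPM and, added after seeing the data, other gene lengths and edgeR without bias-adjusted deviances.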

Additional observations from a re-analysis of the deposited data

Results flagged for a closer look

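For 9 members the genotype folds of the 2 stages lay on opposite sides of 1 with each counting interval excluding 1, and the difference was not tested. It is the log2 fold of KO over WT in group 3 minus that in group 2. The differences above 0 were 1.45 for Cops9, 1.33 for Dcun1d4, 0.73 for Cul4b, 0.57 for Cul1, 0.35 for Rbx1 and 0.25 for Gps1. Those below 0 were -1.43 for Cul7, -0.61 for Ube2m and -0.36 for Cops6. Each group held 1 library, so a library that stands apart and a group that differs cannot be told apart.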

How the results depend on the processing

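Of 233 fitted effects of named members under the alternatives, 218 kept their direction and side of the threshold and 15 lost a call. None reversed. Only the genotype effects of Uba3 and Cops8 were called as reported, so every loss fell on these. The other effects had no call to lose. The count of members called for genotype, 2 as reported, was 1 with plain library totals, 1 with edgeR's filterByExpr and 1 with the DESeq2 Wald test (Uba3 each time). It was 0 without a filter on low counts and 0 with genotype as the only term. Leaving out a library leaves no residual degree of freedom in the additive model, so it was done with genotype as the only term, where the count was 0 each time, as with all libraries. The cause was not tested. By edgeR, the adjusted p of Uba3 was 0.855 without a filter and 0.0796 with genotype alone, and by DESeq2 it was 0.0116. That of Cops8 was 0.0680 with plain totals, 0.130 with filterByExpr and 0.321 with DESeq2. The count for stage was 0 under every alternative run. All 108 pair folds of named members, and the members' counts past 1.5-fold and median folds, kept within the limits set for them. Of 99 levels recomputed with another length or rescaling, 90 moved by more than the spread between libraries. No paired analysis was possible because each group held 1 library and the labels carry no replicate numbers. Members with few reads, such as Cul9 with 22 to 50 counts, have wide counting intervals.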
